A study of Mus musculus with 15 samples.

Results

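Skeletal muscle sarcomere and excitation genes were followed in whole subcutaneous tumors as 39 mouse genes listed by name, out of 18193 genes with a probe set that carries 1 gene symbol. All 39 were measured, each by the probe set of 1 symbol with the highest mean over the 15 arrays, and values are log2 signals after Robust Multichip Averaging (RMA), which puts the arrays on a common scale. The list holds 14 genes typical of fast-twitch fibers, 4 typical of slow-twitch fibers and 21 of neither kind.

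All tumors grew from PDA30364, a pancreatic ductal adenocarcinoma (PDA) line from an Elas-tTA/TetO-Cre mouse model, placed under the flank skin of C57BL/6-Ly5.1 mice aged 6 to 12 weeks. Control mice received vehicle (MCT) and control IgG (n = 4), the CD40 Ab group vehicle and the agonist antibody CD40 mIgG1 (n = 4), the MEKi group the MEK inhibitor GDC-0623 and control IgG (n = 3), and the combination group GDC-0623 and CD40 mIgG1 (n = 4). GDC-0623 was dosed daily at 30 mg/kg, and the antibodies on treatment days 3, 5 and 7 and 1 day before collection. Each array holds RNA of 1 tumor taken on day 26 after the tumor cells were inoculated. The numbers that name the tumors lay under 10000 for all 4 combination tumors, 3 controls and 2 CD40 Ab tumors and above it for all 3 MEKi tumors, 1 control and 2 CD40 Ab tumors, and what this numbering stands for is not given in the sources used here.

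A muscle fiber shortens when myosin heads in the thick filament pull on actin in the thin filament, and troponin on the thin filament lets them do so once calcium binds it. Calcium leaves the sarcoplasmic reticulum after the cell membrane is excited and is pumped back afterwards, while creatine kinase, glycogen breakdown and myoglobin supply energy and oxygen. Fast and slow fibers use different genes for myosin, troponin and calcium handling, which is why these genes are commonly read as fiber type markers. The labelled tissue, a ductal tumor, is not a muscle tissue, and its 12 epithelial marker genes averaged between 9.19 and 10.44 in the 15 arrays. In whole tumors a larger number of muscle cells and more muscle RNA per cell cannot be told apart, and which cells carried the RNA was not tested.

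Tumors of mice given GDC-0623 carried more RNA of the contractile apparatus than tumors of mice that received vehicle. Of the 39 genes, 32 rose in the combination tumors compared with control (limma, Benjamini-Hochberg adjusted p under 0.05 over all 45037 probe sets), none fell and 7 did not pass. The share called up among all 18193 genes was 10.3%. The median log2 fold change (FC) of the 39 genes was 1.85, against -0.04 for all genes. In 36 of the 39 genes all 4 combination arrays lay above all 4 control arrays, which held for 12.3% of all genes.

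Compared with control, MEKi alone gave a median log2 FC of 2.03 over the 39 genes, against -0.04 over all genes, yet 10 of the 39 passed the test, all of them up, where 10.7% of all genes were called up. The 10 were Myh1, Myh2, Ttn, Neb, Actn2, Myom2, Myot, Smpx, Tnnt1 and Mb. In 31 of the 39 genes all 3 MEKi arrays lay above all 4 controls, against 16.4% of all genes. Both comparisons share the 4 control arrays. The number of genes called for MEKi moved with single arrays: it was 2 to 4 without any 1 of the 4 controls and 14 without MEKi replicate 1, which lowered the median to 1.15. All controls but replicate 4 bear tumor numbers of the other series than the MEKi tumors, and with the series as a covariate none of the 39 passed, at a median of 1.69. Over all 45037 probe sets 7162 were called. Without any 1 control this was 4398 to 4872, and with the covariate 720.

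Over all 15 arrays, the mean of both GDC-0623 groups was compared with the mean of both vehicle groups. In this contrast 36 of the 39 genes rose, against 14.6% of all genes, and 1 fell (Eno3), against 17.1% of all genes. Myh7 (log2 FC 0.04) and Tnnc1 (0.18) did not pass. The median was 2.06, and -0.04 for all genes. Without both arrays with the highest muscle signal, MEKi replicate 1 and combination replicate 2, a setting chosen after seeing the data, 35 rose at a median of 1.51.

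**Figure D1:**
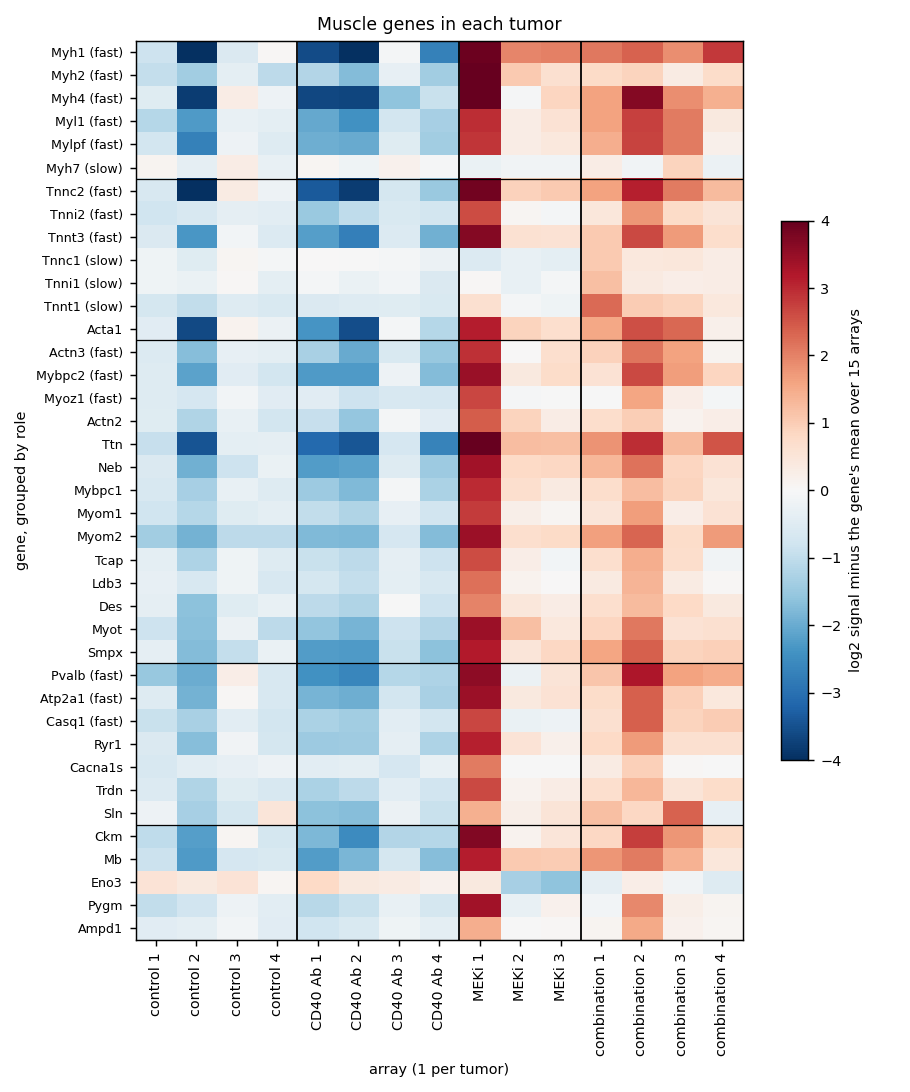
Log2 signal of the 39 genes (rows, grouped by role and divided by horizontal lines) in the 15 tumors (columns, divided by group), minus each gene's mean over the arrays. MEKi replicate 1 is the darkest red column, with the highest signal of all 15 arrays in 32 of the 39 genes, control replicate 2 and CD40 Ab replicates 1 and 2 are the bluest, and the rows of Myh7, Tnnc1, Tnni1 and Eno3 stand apart from the rest.

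The tumors of a group were far from alike in these genes. The median SD within a group was 0.60 over the 39 genes in control tumors, 0.57 in CD40 Ab, 1.47 in MEKi and 0.69 in combination tumors, where the median over all genes ran from 0.10 to 0.15. MEKi replicate 1 lay above both other MEKi tumors in 37 of 39 genes, by a median of 2.54 over their mean. Combination replicate 2 led its group in 33 genes, CD40 Ab replicate 3 in 32 and control replicate 3 in 30. At the low end, control replicate 2 was the lowest control in 32 genes and CD40 Ab replicate 2 the lowest of its group in 26. The mean over the 39 genes was 5.53, 4.47, 5.90 and 5.69 in control replicates 1 to 4 and 4.64, 4.44, 5.68 and 5.07 in the CD40 Ab tumors. It was 8.81, 6.48 and 6.51 in the MEKi tumors and 7.10, 7.99, 7.15 and 6.73 in the combination tumors, so that no GDC-0623 tumor overlapped a vehicle tumor.

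The start sites of 28 of the 39 genes had RefSeq promoter windows (34 windows, GRCm38.p6), which were read over the 250 bases before the start because these genes moved together. The E-box CAGCTG, a sequence that myogenic regulators such as MyoD and myogenin are known to bind, occurred in 15 of the 34 windows and in 13.0% of all 32851 windows. The MEF2 motif occurred in 4 windows (2.92% of all) and the CArG box, read by serum response factor, in 5 (1.47% of all), both strands searched. Of the windows shown here, chosen after the values were seen, those of Acta1, Ckm and Myh4 hold at least 1 of the motifs. These 3 genes rose over both drug groups by more than the list's median. The window of Tnnc1 belongs to the only gene of the list called between MEKi and combination tumors. Capitals mark CAGCTG, MEF2 and CArG matches, which do not overlap in these windows; a match is a run of letters, not a shown binding site.
Acta1 (chr8:123894776-123895025, minus strand): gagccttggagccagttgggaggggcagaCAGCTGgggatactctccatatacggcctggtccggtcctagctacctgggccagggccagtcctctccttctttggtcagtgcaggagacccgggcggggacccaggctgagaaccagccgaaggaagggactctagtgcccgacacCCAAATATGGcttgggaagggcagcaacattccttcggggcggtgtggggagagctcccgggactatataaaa
Ckm (chr7:19410844-19411093, plus strand): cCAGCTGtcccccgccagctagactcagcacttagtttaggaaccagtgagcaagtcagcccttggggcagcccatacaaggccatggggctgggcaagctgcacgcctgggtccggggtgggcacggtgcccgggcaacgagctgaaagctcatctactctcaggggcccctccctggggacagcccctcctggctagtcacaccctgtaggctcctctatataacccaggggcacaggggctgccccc
Myh4 (chr11:67237562-67237811, plus strand): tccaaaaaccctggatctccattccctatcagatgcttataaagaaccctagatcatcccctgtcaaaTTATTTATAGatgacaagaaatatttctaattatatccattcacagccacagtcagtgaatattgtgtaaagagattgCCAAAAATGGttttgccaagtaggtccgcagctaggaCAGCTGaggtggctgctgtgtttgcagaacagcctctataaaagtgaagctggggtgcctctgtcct
Tnnc1 (chr14:31208062-31208311, plus strand): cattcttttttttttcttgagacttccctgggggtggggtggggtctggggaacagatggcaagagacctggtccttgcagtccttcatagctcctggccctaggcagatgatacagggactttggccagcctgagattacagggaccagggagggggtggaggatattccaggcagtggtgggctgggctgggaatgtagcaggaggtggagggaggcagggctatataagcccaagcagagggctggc
The Acta1 window holds 1 E-box and 1 CArG box, that of Ckm 1 E-box, and that of Myh4 1 of each of the motifs. The Tnnc1 window holds none of these letters, from which nothing follows about the factors.

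Among the myosins, all 3 heavy chain genes of fast fibers rose in the combination tumors, and the slow heavy chain gene did not pass in either drug group. Myh1 had the highest log2 FC of the 39 genes in both comparisons. Myh1, the heavy chain of type IIX fibers, measured 6.80, 2.68, 7.05 and 7.66 in control replicates 1 to 4 and 4.05, 3.23, 7.54 and 4.93 in the CD40 Ab tumors. In the MEKi tumors it measured 11.55, 9.59 and 9.64, and in the combination tumors 9.73, 9.97, 9.49 and 10.44. Every GDC-0623 tumor was thus above every vehicle tumor, while controls alone spanned 4.98 log2 units. Its log2 FC against control was 3.86 ± 0.92 (SE, adjusted p = 0.0220) for the combination, a 14.5-fold rise, and 4.21 ± 1.13 (adjusted p = 0.0402) for MEKi, an 18.5-fold rise.

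Myh4, the heavy chain of the fastest IIB fibers, measured 6.51, 3.22, 7.30 and 6.81 in control and 3.37, 3.34, 5.39 and 6.13 in CD40 Ab tumors. It stood at 11.59, 6.97 and 7.88 in MEKi tumors and at 8.62, 10.67, 8.87 and 8.44 in combination tumors. The combination tumors were all above control (log2 FC 3.19, adjusted p = 0.0336), whereas MEKi replicate 2 fell among the controls (2.85, adjusted p = 0.170). Myh2, the heavy chain of IIA fibers, was the most even of these among controls, from 3.57 to 4.57, and reached 9.00, 6.00 and 5.59 with MEKi and 5.74, 5.87, 5.28 and 5.70 with the combination. Both differences passed (2.85, adjusted p = 0.0341, and 1.63, adjusted p = 0.000926). These fast genes lie side by side on chromosome 11 of GRCm38.p6, Myh2 at 67171027-67197517, Myh1 at 67200102-67224577 and Myh4 at 67237812-67260447.

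The light chains of fast myosin rose with the combination and missed the threshold with MEKi. Myl1 averaged 6.89 ± 0.91 in control, 6.26 ± 0.75 in CD40 Ab, 9.18 ± 1.47 in MEKi and 9.60 ± 0.99 in combination tumors (SD; log2 FC 2.71, adjusted p = 0.00963, for the combination and 2.29, adjusted p = 0.0619, for MEKi). Mylpf, the fast regulatory light chain, averaged 6.16 ± 1.13, 5.73 ± 0.71, 8.38 ± 1.44 and 8.81 ± 1.07 in the same order and rose with the combination (adjusted p = 0.0203), with 2.22 for MEKi (adjusted p = 0.0872). Myh7, the heavy chain of slow fibers, was low and level throughout, at 4.11 ± 0.31, 4.18 ± 0.16, 3.99 ± 0.08 and 4.38 ± 0.52 (log2 FC 0.27, adjusted p = 0.526, and -0.12, adjusted p = 0.663). Both probe sets that carry the symbols of Myh7 and of its cardiac neighbor Myh6, which the choice of probe sets left out, ranged from 3.46 to 4.59 and from 2.38 to 2.93.

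In the thin filament, Acta1, the actin of skeletal muscle, had one of the widest spreads. It measured 8.81, 5.66, 9.41 and 9.04 in control, 6.90, 5.72, 9.19 and 8.13 in CD40 Ab, 12.40, 10.15 and 9.95 in MEKi and 10.83, 11.86, 11.56 and 9.47 in combination tumors. All 7 GDC-0623 tumors lay above all 8 vehicle tumors, but the distance to control missed the threshold for the combination (2.70, adjusted p = 0.0540) and for MEKi (2.60, adjusted p = 0.105). The fast troponins Tnnc2, Tnni2 and Tnnt3 and the slow ones Tnnc1, Tnni1 and Tnnt1 are described with the fiber types.

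The Z-disc, which anchors the thin filaments, and the giant filament proteins moved as a block. In the combination 13 of 14 genes were up, against 10.3% of all genes. Ttn, the spring that spans the sarcomere, measured 5.27, 2.76, 5.81 and 5.83 in control and 3.08, 2.79, 5.53 and 3.52 in CD40 Ab tumors. It measured 10.25, 7.45 and 7.42 in MEKi and 8.01, 9.16, 7.46 and 8.73 in combination tumors, again without overlap between drug and vehicle (3.42, adjusted p = 0.00816, and 3.46, adjusted p = 0.0378). Neb, the ruler of the thin filament, went from 4.11 ± 0.71 in control and 3.42 ± 0.79 in CD40 Ab tumors to 6.67 ± 1.48 in MEKi (2.56, adjusted p = 0.0328) and 6.24 ± 0.69 in combination tumors (2.13, adjusted p = 0.00725). Myom2, a protein of the M-band that ties thick filaments together, was at 3.90, 3.38, 4.25 and 4.22 in control and at 8.71, 5.96 and 6.06 in MEKi tumors. In the combination it reached 6.92, 7.62, 6.03 and 7.00, and the lowest value with GDC-0623, 5.96, was above the highest with vehicle, 4.60 (log2 FC 2.96, adjusted p = 0.000481, and 2.97, adjusted p = 0.0154).

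Further genes of this group passed in both comparisons. Actn2, an actinin that crosslinks actin, averaged 4.83 ± 0.39 in control, 4.76 ± 0.63 in CD40 Ab, 6.73 ± 1.10 in MEKi (adjusted p = 0.0270) and 6.03 ± 0.40 in combination tumors (adjusted p = 0.00768). Myot, which bundles actin at the Z-disc, averaged 3.67 ± 0.60, 3.27 ± 0.46, 6.31 ± 1.56 and 5.67 ± 0.72 and rose with MEKi (2.64, adjusted p = 0.0301) and with the combination (2.00, adjusted p = 0.00752). Smpx, a small stretch-responsive muscle protein, averaged 4.30 ± 0.68, 3.37 ± 0.65, 6.61 ± 1.47 and 6.58 ± 0.68 and also rose in both (2.31, adjusted p = 0.0447, and 2.27, adjusted p = 0.00457). Those were the members of this group called under MEKi alone, together with Ttn, Neb and Myom2.

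The remaining genes of the group rose with the combination and missed the threshold with MEKi, except Myoz1. Actn3, the fast fiber actinin, averaged 5.71 ± 0.65 in control, 5.10 ± 0.58 in CD40 Ab, 7.65 ± 1.51 in MEKi (adjusted p = 0.0806) and 7.65 ± 0.88 in combination tumors (adjusted p = 0.0172). Of the myosin binding proteins, Mybpc2 of fast fibers averaged 5.40 ± 0.80, 4.75 ± 0.98, 7.89 ± 1.67 (2.49, adjusted p = 0.0549) and 7.79 ± 0.92 (2.40, adjusted p = 0.0108). Mybpc1, counted here in neither fiber list, averaged 5.20 ± 0.45, 4.75 ± 0.74, 7.23 ± 1.44 (2.03, adjusted p = 0.0511) and 6.72 ± 0.33 (1.52, adjusted p = 0.00248). The M-band gene Myom1 averaged 4.30 ± 0.34, 4.19 ± 0.37, 6.04 ± 1.51 (adjusted p = 0.0873) and 5.76 ± 0.63 (adjusted p = 0.00947).

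Tcap, which caps titin at the Z-disc, averaged 5.59 ± 0.45, 5.39 ± 0.30, 7.09 ± 1.47 (1.49, adjusted p = 0.132) and 6.85 ± 0.65 (1.26, adjusted p = 0.0288). Ldb3, a Z-disc adaptor, averaged 4.79 ± 0.23, 4.55 ± 0.23, 6.01 ± 1.24 (1.22, adjusted p = 0.129) and 5.75 ± 0.57 (0.96, adjusted p = 0.0303). Des, the intermediate filament desmin, which smooth muscle also expresses, averaged 6.55 ± 0.63, 6.47 ± 0.52, 8.16 ± 0.93 (1.61, adjusted p = 0.0501) and 8.04 ± 0.36 (1.48, adjusted p = 0.00975). Myoz1, a calcineurin-binding protein of fast fibers, was at 5.25, 5.12, 5.67 and 5.31 in control and at 5.75, 7.35, 6.05 and 5.71 in combination tumors. Its log2 FC of 0.88 did not pass (adjusted p = 0.107), nor did 1.31 with MEKi (adjusted p = 0.184), where 8.45 in replicate 1 stood against 5.74 and 5.76.

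Of the 7 excitation and calcium genes, 6 rose with the combination and none passed with MEKi alone, at medians of 1.73 and 1.74. The shares called up among all genes were 10.3% and 10.7%. Ryr1, the channel that releases calcium from the sarcoplasmic reticulum, measured 4.43, 3.29, 4.87 and 4.30 in control, 8.10, 5.55 and 5.20 in MEKi (2.06, adjusted p = 0.0767) and 5.79, 6.71, 5.63 and 5.66 in combination tumors (1.73, adjusted p = 0.00919). Cacna1s, the voltage sensor that opens it, stayed dim and averaged 3.44 ± 0.19 in control, 3.39 ± 0.15 in CD40 Ab, 4.53 ± 1.21 in MEKi (adjusted p = 0.159) and 4.17 ± 0.45 in combination tumors (0.73, adjusted p = 0.0378). Trdn, which holds the release complex together, averaged 4.90 ± 0.33, 4.74 ± 0.36, 6.64 ± 1.40 (1.74, adjusted p = 0.0690) and 6.43 ± 0.36 (1.53, adjusted p = 0.00121).

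The genes of calcium return and buffering, except Sln, also passed with the combination and not with MEKi. None of them was called between combination and MEKi tumors. Atp2a1, the fast fiber calcium pump, averaged 5.98 ± 0.82 in control, 5.27 ± 0.57 in CD40 Ab, 8.21 ± 1.69 in MEKi (adjusted p = 0.0822) and 7.86 ± 0.87 in combination tumors (1.88, adjusted p = 0.0284). Casq1, which stores calcium in the reticulum, averaged 5.28 ± 0.37, 5.17 ± 0.45, 6.86 ± 1.67 (adjusted p = 0.148) and 7.36 ± 0.79 (2.08, adjusted p = 0.00420). Pvalb, the calcium buffer of the fastest fibers, measured 5.05, 4.58, 6.85 and 5.95 in control, 10.17, 6.33 and 7.09 in MEKi (2.26, adjusted p = 0.132) and 7.68, 9.81, 8.19 and 8.07 in combination tumors (2.83, adjusted p = 0.00872). Sln, a small inhibitor of the pump, did not pass in either (1.45, adjusted p = 0.108, and 1.15, adjusted p = 0.110): it averaged 4.86 ± 0.76, 4.18 ± 0.70, 6.01 ± 0.62 and 6.31 ± 1.11, with 7.65 in combination replicate 3 and 4.96 in replicate 4.

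Of the 5 energy genes 2 rose with the combination and 1 with MEKi, where 10.3% and 10.7% of all genes were called up. Ckm, the muscle creatine kinase, measured 6.26, 5.07, 7.34 and 6.56 in control, 5.46, 4.76, 6.10 and 6.13 in CD40 Ab, 10.96, 7.41 and 7.75 in MEKi (2.40, adjusted p = 0.100) and 8.10, 10.03, 9.02 and 8.04 in combination tumors (2.49, adjusted p = 0.0134). Mb, the oxygen store myoglobin, measured 6.07, 4.66, 6.28 and 6.32 in control, 10.09, 8.00 and 7.97 in MEKi (2.85, adjusted p = 0.0147) and 8.69, 9.02, 8.34 and 7.40 in combination tumors (2.53, adjusted p = 0.00414). The glycogen phosphorylase gene Pygm averaged 4.85 ± 0.36, 4.70 ± 0.35, 6.52 ± 2.00 (adjusted p = 0.188) and 5.99 ± 0.94 (1.14, adjusted p = 0.0928), and the muscle AMP deaminase gene Ampd1 3.52 ± 0.16, 3.38 ± 0.27, 4.36 ± 0.83 (adjusted p = 0.124) and 4.34 ± 0.69 (0.82, adjusted p = 0.0912).

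Eno3, the muscle enolase, went the other way. It measured 10.38, 10.23, 10.39 and 9.90 in control and 10.63, 10.24, 10.18 and 10.00 in CD40 Ab tumors. In MEKi tumors it measured 10.22, 8.52 and 8.24 and in combination tumors 9.48, 10.11, 9.70 and 9.33. MEKi replicate 1, combination replicate 2 and control replicate 3, each with the most muscle signal of its group, also had the highest Eno3 there. CD40 Ab replicate 3, which led its group in muscle signal, did not, at 10.18 against 10.63 in CD40 Ab replicate 1. Its log2 FC was -1.23 (adjusted p = 0.0882) for MEKi and -0.57 (adjusted p = 0.0529) for the combination, and -0.92 (adjusted p = 0.0115) over both drug groups against both vehicle groups.

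**Figure D2:**
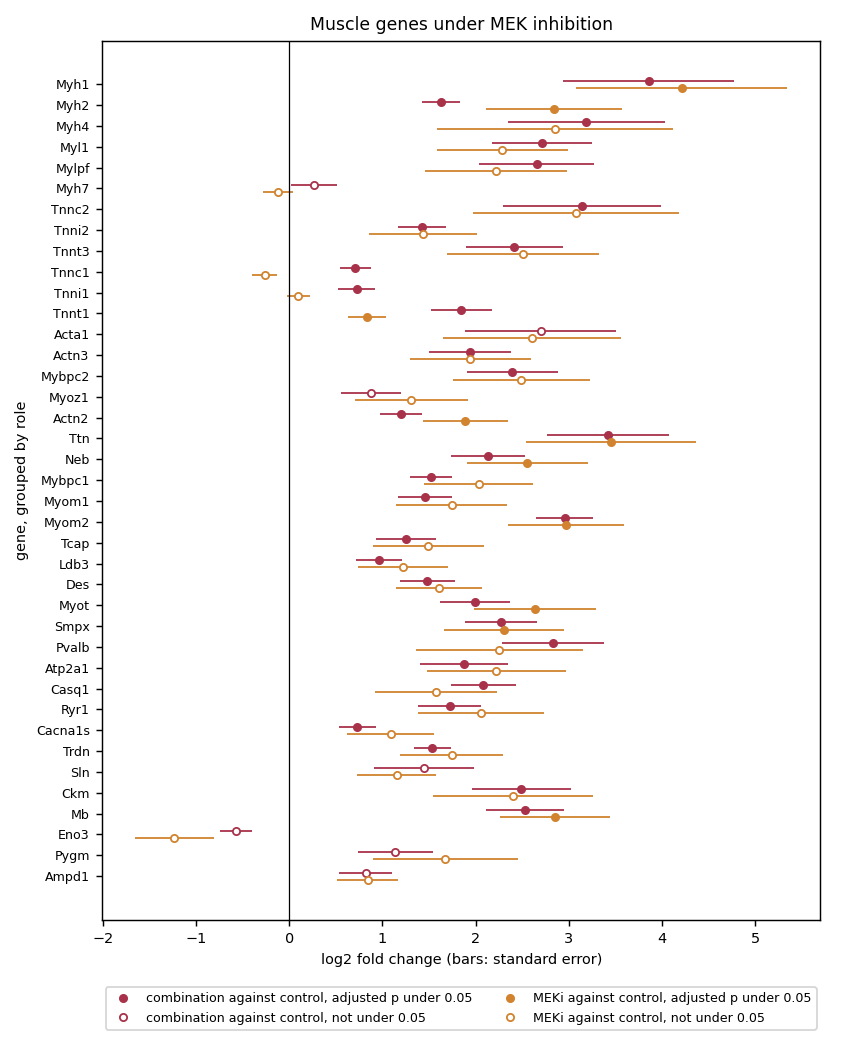
Log2 fold change of each of the 39 genes (rows, grouped by role) against control, with the standard error as a bar, for the combination and for MEKi, where filled points passed an adjusted p under 0.05. Estimates of the 2 comparisons lie close together for most genes while the MEKi bars are longer, 32 points are filled for the combination against 10 for MEKi, and the slow fiber genes Myh7, Tnnc1, Tnni1 and Tnnt1 have combination points to the right of the MEKi points.

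Fast and slow fiber genes were compared within each drug group. The 14 fast genes had a mean log2 FC of 2.36 in the combination and 2.37 in MEKi tumors, with 13 and 2 called up, where 10.3% and 10.7% of all genes were. The 4 slow genes had a mean of 0.89 in the combination, with 3 up (Tnnc1, Tnni1 and Tnnt1), and 0.14 in MEKi tumors, with 1 up (Tnnt1). The difference, fast minus slow, was 1.47 in the combination and 2.24 in MEKi, and no test of it was made. It depends on which genes were placed in each list, with Mybpc1 in neither, and no other assignment was run. Without MEKi replicate 1 the MEKi value was 1.33 and the difference between combination and MEKi turned from -0.76 to 0.14. The tumor numbers also divide these groups, and the numbering and the antibody cannot be told apart here. The mean level of the slow genes was 4.70, 4.42, 4.91 and 4.59 in control, 4.79, 4.69, 4.80 and 4.56 in CD40 Ab, 4.90, 4.73 and 4.74 in MEKi and 6.13, 5.34, 5.57 and 5.12 in combination tumors. All 4 combination tumors were thus above the 11 others, while the MEKi tumors lay among the vehicle tumors. The mean level of the fast genes was 6.12, 4.61, 6.71 and 6.39 in control, 4.81, 4.53, 6.24 and 5.52 in CD40 Ab, 10.25, 7.27 and 7.47 in MEKi and 7.92, 9.32, 8.29 and 7.73 in combination tumors.

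**Figure D3:**
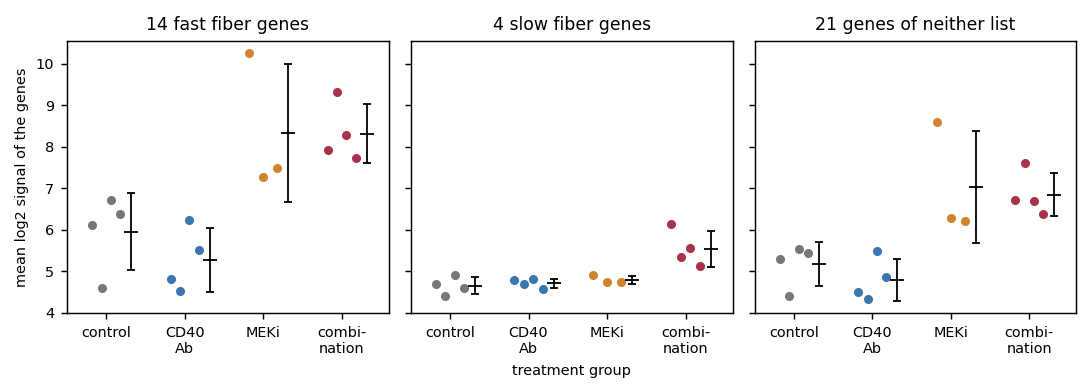
Mean log2 signal of the 14 fast fiber genes, the 4 slow fiber genes and the 21 genes of neither list in each tumor (points), with the mean and SD of each group beside them. In the left and right panels both drug groups lie above both vehicle groups, and in the middle panel only the 4 combination tumors, at 5.12 to 6.13, lie above the rest, whose highest value is 4.91.

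Each troponin subunit has a fast and a slow form. In the MEKi tumors the slow forms Tnnc1 and Tnni1 did not pass and Tnnt1 rose. The fast calcium-binding subunit Tnnc2 measured 7.60, 4.20, 8.56 and 8.02 in control, 4.87, 4.45, 7.54 and 6.75 in CD40 Ab, 12.09, 9.16 and 9.28 in MEKi and 9.83, 11.33, 10.30 and 9.50 in combination tumors. The combination difference passed (3.15, adjusted p = 0.0358) and the MEKi difference did not (3.08, adjusted p = 0.100). Its slow form Tnnc1, which the heart also uses, measured 5.66, 5.37, 5.93 and 5.77 in control, 5.87, 5.82, 5.76 and 5.61 in CD40 Ab, 5.29, 5.53 and 5.44 in MEKi and 6.88, 6.25, 6.31 and 6.13 in combination tumors. It was thus higher in every combination tumor than in any other tumor (0.71 against control, adjusted p = 0.0223), with MEKi tumors at the low end of the controls (-0.26, adjusted p = 0.227).

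The fast inhibitory subunit Tnni2 averaged 7.77 ± 0.20 in control, 7.37 ± 0.40 in CD40 Ab, 9.20 ± 1.51 in MEKi (1.43, adjusted p = 0.137) and 9.20 ± 0.61 in combination tumors (1.43, adjusted p = 0.00628). Its slow form Tnni1 measured 5.06, 4.96, 5.27 and 4.83 in control, 5.28, 4.94 and 5.16 in MEKi (0.10, adjusted p = 0.646) and 6.43, 5.58, 5.50 and 5.51 in combination tumors (0.72, adjusted p = 0.0396). The fast tropomyosin-binding subunit Tnnt3 averaged 6.14 ± 0.98 in control, 5.17 ± 0.93 in CD40 Ab, 8.65 ± 1.78 in MEKi (2.51, adjusted p = 0.0742) and 8.56 ± 0.85 in combination tumors (2.42, adjusted p = 0.0139). Its slow form Tnnt1 measured 3.78, 3.51, 3.98 and 3.88 in control, 3.91, 3.98, 4.00 and 3.87 in CD40 Ab, 5.13, 4.41 and 4.32 in MEKi and 6.75, 5.49, 5.39 and 4.90 in combination tumors. Tnnt1 passed in both comparisons (1.85, adjusted p = 0.00560, for the combination and 0.83, adjusted p = 0.0271, for MEKi). Combination replicate 1, which was not the tumor with the highest fast genes, had the highest signal of all 15 arrays for Tnnc1, Tnni1 and Tnnt1.

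**Figure D4:**
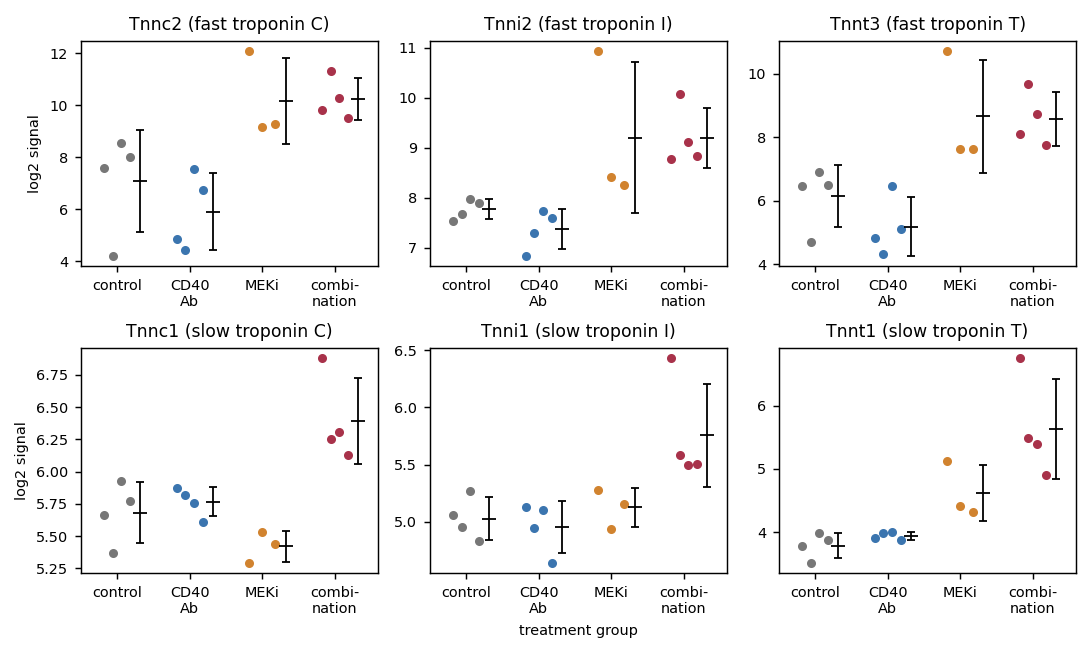
Log2 signal of the fast troponin genes (top) and their slow counterparts (bottom) in each tumor (points), with the mean and SD of each group; each panel has its own axis. MEKi replicate 1 is the highest point in each top panel, combination replicate 1 in each bottom panel, and Tnnc1 in the MEKi tumors, at 5.29 to 5.53, lies below all 4 combination tumors.

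Set against each other, combination and MEKi tumors differed in 1 of the 39 genes, where 1.38% of all genes were called up. Tnnc1 was higher in the combination (log2 FC 0.97 ± 0.17, adjusted p = 0.0293). No gene of the list was called without MEKi replicate 2 or 3, without combination replicate 2 or 3, or with the replicate number as a block. The highest and lowest differences among the others were Tnnt1 (1.01, adjusted p = 0.253), Eno3 (0.66, adjusted p = 0.504), Myh2 (-1.22, adjusted p = 0.447) and Actn2 (-0.69, adjusted p = 0.502). The median was -0.04, against 0.01 for all genes. Its sign turned in several settings, among them 0.65 without MEKi replicate 1, 0.07 without combination replicate 1 and 0.10 without combination replicate 4. It stayed negative in others, down to -0.57 without MEKi replicate 2, so no direction is given. The 3 MEKi tumors and the 4 combination tumors also fall on different sides of the tumor numbers, and that split cannot be told apart from the antibody in this comparison.

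CD40 Ab alone called none of the 39 genes, and 1 had an unadjusted p under 0.05 (limma); 1.01% of all genes were called up. Estimates were below 0 for 35 of the 39 genes, with a median of -0.41 against -0.0025 for all genes. The lowest were Myh4 (-1.40, adjusted p = 0.681) and Tnnc2 (-1.19, adjusted p = 0.754), and the highest were Tnnt1 (0.15, adjusted p = 0.668) and Tnnc1 (0.08, adjusted p = 0.877). For each of these genes the estimate was smaller than the SD between control tumors (1.86, 1.97, 0.20 and 0.24).

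Combination tumors differed from CD40 Ab tumors, which served here as the vehicle side of the same antibody, in 31 of the 39 genes, all up, against 3.69% of all genes. Myoz1, Myh7, Tnni1, Cacna1s, Eno3, Pygm, Ampd1 and Sln did not pass. The median was 2.12, and -0.03 for all genes. Myh1 (4.97, adjusted p = 0.0104) and Ttn (4.61, adjusted p = 0.00471) had the highest estimates, Tnnc1 rose by 0.63 (adjusted p = 0.0486), and Eno3 (-0.61, adjusted p = 0.0892) and Myh7 (0.20, adjusted p = 0.649) had the lowest. The interaction, which asks whether CD40 Ab shifts a gene differently with GDC-0623 than with vehicle, called 1 of the 39, against 2% of all genes. That gene was Tnnc1 (0.89, adjusted p = 0.0391), and no gene of the list was called once each array was scaled to a common median.

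Other muscle genes, held in lists outside the 39, moved less. Of 27 measured genes of sarcomere and fiber structure 18 rose over both drug groups and none fell, at a median of 0.61. Klhl41 (2.36) and Cmya5 (2.11) had its highest and Tpm1 (-0.11) and Synpo2l (-0.06) its lowest estimates. Of 17 other genes of excitation and calcium 4 rose and 2 fell (median 0.07), near the shares over all genes of 14.6% and 17.1%, with Srl (1.24) and Jph2 (0.59) at one end and the receptor subunit Chrnb1 (-0.45) and Asph (-0.29) at the other. Of 14 other genes of muscle energy supply 7 rose and none fell (median 0.39; Pgam2 1.52, Ckmt2 1.22, Fabp3 -0.05, Gys1 -0.15). Of 7 other slow fiber genes 3 rose, against 14.6% of all genes (median -0.0046). Among the 3 were Myoz2 (0.54) and Casq2 (0.32), and the lowest of the 7 were Myh7b (-0.07) and Myl3 (-0.07).

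Among 16 myogenic regulators and genes of regenerating fibers 9 rose over both drug groups and none fell, against 14.6% and 17.1% of all genes. Their median was 0.27, from Mef2c (1.17) and Myl4 (0.99) to Cdh15 (-0.04) and Pax7 (-0.12). Myog, the regulator of late muscle differentiation, measured 4.58, 4.01, 4.27 and 4.44 in control, 4.85, 4.62 and 5.35 in MEKi (0.61, adjusted p = 0.0647) and 6.20, 5.45, 4.99 and 4.98 in combination tumors (1.08, adjusted p = 0.0204). Embryonic Myh3 measured 2.61, 3.00, 2.92 and 3.11 in control, 3.09, 3.05 and 3.20 in MEKi and 4.50, 3.74, 3.39 and 2.95 in combination tumors. Perinatal Myh8 measured 2.51, 2.40, 2.60 and 2.28 in control, 3.20, 2.70 and 3.30 in MEKi (0.62, adjusted p = 0.0274) and 5.01, 2.95, 2.87 and 3.16 in combination tumors (1.05, adjusted p = 0.125). Combination replicate 1, the tumor with the highest slow troponins, was also the highest in Myog, Myh3, Myh8 and the embryonic acetylcholine receptor gene Chrng, at 5.82 against 4.91 to 5.29 in all other tumors. Myod1 (3.74 to 4.30) and the satellite cell gene Pax7 (3.27 to 3.65) ranged narrowly over the 15 arrays.

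Markers of other tissues that a tumor under the skin may hold did not all follow the muscle genes. The mean of 8 cardiac markers ranged from 4.43 to 4.96. Its lowest value was that of MEKi replicate 1. Of the 8, 2 rose and 1 fell over both drug groups, where 14.6% and 17.1% of all genes did. Among these markers Tnnt2 measured 7.48, 8.03 and 7.98 in MEKi tumors. It measured 9.57 to 10.12 in control, 9.19 to 10.32 in CD40 Ab and 9.37 to 9.72 in combination tumors. Other cardiac markers went the other way. Myl7 was at 4.42 to 4.80 in MEKi tumors against 3.96 to 4.29 in control. Actc1 was at 4.89 to 5.99 in combination tumors against 4.38 to 4.63 in control. The mean of 10 smooth muscle markers was 6.07 to 6.21 in control, 5.81 to 6.38 in CD40 Ab, 6.49 to 6.82 in MEKi and 6.63 to 7.34 in combination tumors. Of the 10, 7 rose and 1 fell over both drug groups, against 14.6% and 17.1% of all genes. The mean of 12 skin keratinocyte markers was 6.56 to 7.25 in MEKi and 5.24 to 5.47 in combination tumors, with 6.73 in CD40 Ab replicate 3 and 5.21 to 6.04 in the other vehicle tumors. Of these 12 genes 7 rose with MEKi against control (10.7% of all genes), and with the combination none rose (10.3% of all genes) and 2 fell. The mean of 9 adipocyte markers was highest in combination replicate 4 (8.08) and CD40 Ab replicate 1 (7.99) and 5.66 to 6.04 in MEKi tumors. The mean of 10 endothelial markers was 7.31 in MEKi replicate 1, the tumor with the most muscle signal, and 6.44 and 6.50 in the other MEKi tumors. Of these markers 1 rose and 2 fell over both drug groups, where 14.6% and 17.1% of all genes did, of 4 measured nerve markers 1 rose, and of the 12 epithelial markers 6 rose and 1 fell. The part of these tissues in the muscle results was not tested.

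**Figure D5:**
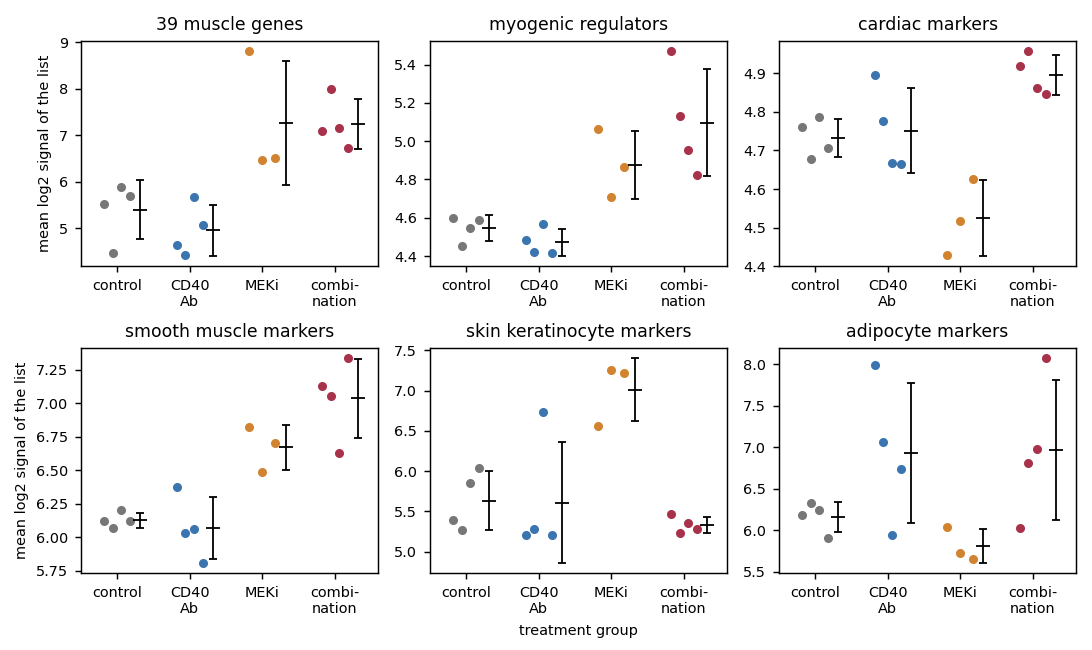
Mean log2 signal of the 39 muscle genes and of 5 other marker lists in each tumor (points), with the mean and SD of each group; each panel has its own axis. Skeletal muscle, myogenic and smooth muscle lists are higher in both drug groups, skin keratinocyte markers are high in MEKi but at 5.24 to 5.47 in combination tumors, and cardiac markers stay between 4.43 and 4.96. The myogenic list shares Des with the 39 genes.

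For 25 of the 39 genes the chip carries 1 probe set of 1 symbol, and for the other 14 it carries 28 further ones, 14 of them with a mean log2 signal under 4. Of the 28, 20 had the sign of the gene's chosen probe set in the combination and 23 in MEKi against control, with 13 and 4 called up and none down. The chosen probe set of Myom2 ends in _x_at, a mark for possible binding of related transcripts.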

How the data were processed

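Expression was measured on whole-genome Affymetrix mouse arrays, 1 per tumor, from RNA labelled with a 3' in vitro transcription kit. The authors normalized the arrays in Chipster by RMA and deposited log2 signals; versions are not given in the sources used here. RMA sets equal distributions, so a shift of all genes would not be seen, and the medians of the arrays lay between 5.16 and 5.24. Of 45101 probe sets, 64 controls were left out and 45037 tested with limma 3.58.1 in R 4.3.3 (2-group empirical Bayes, two-sided, Benjamini-Hochberg over all, threshold 0.05). Interaction and drug contrasts used all 15 arrays. Genes were named from the platform annotation: 34945 probe sets had 1 symbol, 932 several and 9160 none. The number of arrays limits the precision. On simulated data, 83% to 97% of 200 2-fold changes, placed in probe sets drawn from the whole chip, were recovered in the 7 contrasts. These rates do not describe the 39 genes, whose median SD within a group was 0.57 to 1.47, against 0.10 to 0.15 for all genes. All 39 genes are named, with other muscle lists by their 2 highest and 2 lowest estimates plus 6 regeneration genes. The genes and lists were chosen with earlier results of these data known. The labels speak of 4 to 5 mice a group and the design text of 3 to 4. Alternatives were other fits, scalings, filters, thresholds, probe set choices, a replicate block, the tumor number series and leaving out each array. Promoters are RefSeq sequences (GRCm38.p6). Figures were drawn with matplotlib 3.10.9.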

Additional observations from a re-analysis of the deposited data

Results flagged for a closer look

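In 9 of 126 sets of 4 tumors, 7.14% where chance gives about 5%, 1 tumor stood apart from the other 3. The measure was its gap to the nearest tumor over the range of the group. The sets use the same tumors and the genes moved together, so they are not independent, and these shares are not a test. Control replicate 2 was far below the other controls in Actn3 (0.853), Mybpc2 (0.841), Acta1 (0.84), Mb (0.849) and Des (0.851). Combination replicate 1 was far above its group in Tnni1 (0.914), combination replicate 2 in Ryr1 (0.852) and Ampd1 (0.930), and CD40 Ab replicate 3 in Myom2 (0.946). The 3 MEKi tumors were too few for this test.

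Tnnc1 was the only gene of the 39 called for the interaction of CD40 Ab with GDC-0623, at 0.89 on the log2 scale (limma, adjusted p = 0.0391). With 2% of all genes called up, 1 call among 39 is near that share. The call was lost in several settings given below. All MEKi and all combination tumors also fall on different sides of 10000 in tumor number.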

How the results depend on the processing

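The direction of the list's median held under every alternative run, except between combination and MEKi tumors, where it was -0.57 to 0.65. The number of genes called was less stable. At an adjusted p under 0.01 it was 18 for combination against control (32 at 0.05), 13 for combination against CD40 Ab (31), 0 for MEKi against control (10), 0 for combination against MEKi (1) and 0 for the interaction (1). For MEKi against control it was 22 in a fit of all 15 arrays and 4 with an intensity trend and a robust prior. It was 0 with the tumor number series as a covariate, where calls over all probe sets fell from 7162 to 720. Within the tumors numbered from 10000 on, where a single control is assumed to vary like the MEKi tumors, the median was 1.69. In those last settings Myh7 turned from -0.12 to 0.11, without passing. For the interaction the count was 0 after median centring, further quantile normalization or with the tumor number series, which also turned its fast minus slow difference from -0.03 to 1.23.

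Leaving out 1 array at a time gave 24 to 32 genes for combination against control and 2 to 14 for MEKi against control: 2 without control replicate 1, 3 without replicate 2 or 4 and 4 without replicate 3. The MEKi median then ranged from 1.15, without MEKi replicate 1, to 2.53. The range was 0 to 2 for combination against MEKi, 23 to 30 for combination against CD40 Ab, 0 to 1 for the interaction and 35 to 36 over both drug groups. Combination against MEKi had 2 calls without MEKi replicate 1 and 0 without MEKi replicate 2 or 3 or combination replicate 2 or 3. The interaction had 0 without control replicate 1, 3 or 4, CD40 Ab replicate 2, 3 or 4, MEKi replicate 3 or combination replicate 2 or 3. The fast minus slow difference between combination and MEKi tumors, -0.76, was 0.14 without MEKi replicate 1. The causes were not tested.

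Arrays with the same replicate number did not pair: their deviations correlated at -0.28 to 0.21 over 21 pairs, and those of other arrays at -0.25 to 0.22 over 63. With the replicate number as a block, 27 genes were called between combination and control tumors, 9 between MEKi and control, 0 between CD40 Ab and control, 0 between combination and MEKi, 27 between combination and CD40 Ab, 0 for the interaction and 35 over both drug groups. The tumor number series could not be estimated between combination and MEKi.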
